A study of Rattus norvegicus with 6 samples.

Results

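Antioxidant defence was described here through 35 named genes that code for the transcription factor NRF2 and its inhibitor, the enzymes they are known to control, the glutathione and thioredoxin systems, peroxidases, superoxide dismutases, glutathione S-transferases, ferritin chains and metallothioneins. Members were picked out of the table by gene symbol, and 34 of the 35 were found among the 17648 genes listed. FTH1, the ferritin heavy chain, was not analysed here. The RNA came from cultures of spinal cord cells of neonatal Sprague-Dawley rats, sequenced in 6 libraries. Glu + siR-Con (3 libraries) received a control siRNA and Glu + siR-GAL3 (3 libraries) an siRNA against galectin-3, the product of LGALS3. Per the design text and the paper, all 6 cultures were exposed to 10 μM glutamate for 1 h on day 3 and were then kept without it for 16 h, a model of excitotoxic injury. The sample labels conflict with this at one point, since they give saline for the control group, and the labels and design text call the silenced cells knocked out where the paper describes a knockdown. On that reading no culture without glutamate was among the 6, and nothing below compares injured with uninjured cells. The cytostatic Ara-C was added at 0.05 mg/mL 24 h after plating in both groups to limit dividing cells. The paper speaks of independent repeats for its data in general, but the labels do not say whether these libraries came from separate cultures or litters. The p-values measure the spread between these libraries, which may be technical. Per the paper, differences within groups had already been corrected in these values. The p-values and SDs below therefore rest on the spread left after that correction, and the spread before it is unknown.

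LGALS3 checked the labels. Its expression score was 77.4, 54.4 and 62.4 in Glu + siR-Con and -1.64, 32.3 and 18.5 in Glu + siR-GAL3, so the groups did not overlap. On the log2(value + 1) scale the difference was -2.91 ± 1.20 (SE, limma adjusted p = 0.571). Its size rested on replicate 1 of the silenced group, whose negative score was set to 0, and was -1.35 without that library and -4.03 with a pseudocount of 0.1. The scores are linear values that the authors took from FPKM, a measure per gene length, and then corrected so that some lie below 0. Because of that origin, levels of different genes are set side by side below. How far the correction changed these levels is unknown, as is the number of reads behind them.

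The cell type on the labels went against the highest of the cell type markers. GFAP, the astrocyte intermediate filament, had a mean score of 655.4 in Glu + siR-Con and 523.7 in Glu + siR-GAL3, and MBP, a protein of oligodendrocyte myelin, had 656.1 and 769.9. The neuronal marker MAP2 had 17.4 and 16.5. RBFOX3, the NeuN antigen of mature neurons, had 0.396 and 0.369, and CHAT, the acetylcholine-synthesising enzyme of motor neurons, had 0.0227 and 0.0254. Not every glial marker lay above the neuronal ones. In Glu + siR-Con the neuronal ELAVL3, GAP43 and TUBB3 had means of 8.92, 7.81 and 4.86. ALDH1L1 of astrocytes had 3.58 and MOG of oligodendrocytes 3.74. Summed over each list in Glu + siR-Con libraries, neuron markers gave 39.9 to 44.5, astrocyte markers 937 to 1077 and oligodendrocyte markers 1136 to 1205. Of 15 neuron markers 14 were listed and 6 had a mean of at least 1. Levels below are those of a culture rich in glial transcripts, and in such bulk RNA fewer cells of a type and less RNA per cell cannot be told apart.

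**Figure D1:**
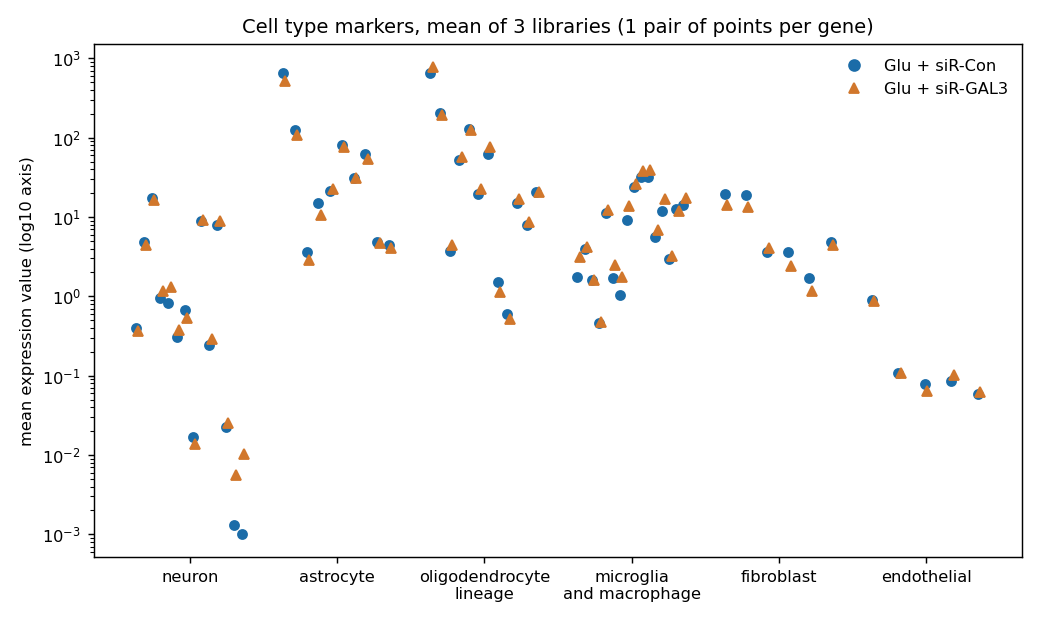
Mean expression value over the 3 libraries of a group (log10 axis) for single marker genes, gathered by cell type, with 1 circle (Glu + siR-Con) and 1 triangle (Glu + siR-GAL3) per gene. The highest astrocyte and oligodendrocyte points, GFAP and MBP, lie between 523.7 and 769.9, the highest neuronal point, MAP2, lies at 17.4 and 16.5, and every endothelial point lies below 1.

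As background, NRF2 (gene NFE2L2) is held in the cytoplasm and marked for breakdown by KEAP1, whose cysteines react with oxidants and electrophiles. Freed NRF2 enters the nucleus, pairs with a small MAF protein and binds the antioxidant response element (ARE) in front of genes for glutathione synthesis, thioredoxin reduction, quinone reduction and haem breakdown. In the nervous system this response is known to be stronger in astrocytes than in neurons, and astrocytes supply neurons with precursors of glutathione. Peroxiredoxins and glutathione peroxidases remove peroxides, superoxide dismutases turn superoxide into hydrogen peroxide, and ferritin stores iron in a form that cannot feed radical chemistry. Metallothioneins bind zinc and copper through their many cysteines and are induced through metal response elements (MREs).

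RefSeq promoter windows of assembly GRCr8, from 250 bases before to 50 after a gene's start, were searched on both strands for the ARE letters TGACNNNGC and the MRE letters TGCACNC or TGCGCNC. No genome build is stated for the expression values, so the windows serve as sequence context only. The 28 members with a window had 31 windows. Of these windows 10, from 10 members, held the ARE letters, as did 12.1% of all 33469 windows. Bases outside the windows were not searched, so a window without the letters does not show that a gene lacks an ARE. The promoters of 5 members are shown because the expression of 2 of them (TXNRD1 and GCLM) was lower without overlap, that of SOD2 was higher without overlap, and those of PRDX1 and GSTP1 overlapped, although all hold the letters. Each line runs 5′ to 3′ on the gene's strand, with the ARE letters in capitals (read from the opposite strand where they begin with GC).
TXNRD1: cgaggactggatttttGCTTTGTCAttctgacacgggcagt
GCLM: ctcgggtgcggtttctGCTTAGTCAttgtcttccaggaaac
PRDX1: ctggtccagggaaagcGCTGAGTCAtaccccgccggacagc
GSTP1: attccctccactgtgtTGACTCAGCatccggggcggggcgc
SOD2: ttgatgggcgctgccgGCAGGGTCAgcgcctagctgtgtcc
TXNRD1 lies at chr7:22755958-22755998 (minus strand) and GCLM at chr2:213031947-213031987 (plus strand), PRDX1 at chr5:135383755-135383795 (plus strand), GSTP1 at chr1:210769742-210769782 (minus strand) and SOD2 at chr1:50050179-50050219 (minus strand). The other TXNRD1 window, chr7:22764802-22765101, held 0 matches to the ARE letters. PRDX5, higher without overlap, also held the letters and is not shown. Genes that hold the letters were found among those with lower, higher and overlapping values. A match describes letters in the window and does not show binding.

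The metallothionein promoters are shown because these genes are known to be induced through MREs. At least 3 matches were found in 1.68% of all windows and in 4 members, with 6 in MT1, 4 in MT2A, 3 in MT3 and 3 in GSTA4. MRE letters are in capitals, on either strand.
MT1: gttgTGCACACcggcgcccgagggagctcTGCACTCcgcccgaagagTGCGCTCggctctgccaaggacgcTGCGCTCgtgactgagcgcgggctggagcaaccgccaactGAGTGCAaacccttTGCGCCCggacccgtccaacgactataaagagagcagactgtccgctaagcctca
MT2A: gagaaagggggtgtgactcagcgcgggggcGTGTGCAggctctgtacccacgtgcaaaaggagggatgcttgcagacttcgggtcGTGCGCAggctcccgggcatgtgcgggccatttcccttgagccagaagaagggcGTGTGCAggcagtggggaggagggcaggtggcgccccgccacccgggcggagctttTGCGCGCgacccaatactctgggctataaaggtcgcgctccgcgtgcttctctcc
MT3: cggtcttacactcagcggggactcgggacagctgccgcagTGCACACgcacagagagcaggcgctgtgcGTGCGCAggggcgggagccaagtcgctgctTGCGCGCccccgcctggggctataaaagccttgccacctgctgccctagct
These stretches lie at chr19:10832976-10833155 (MT1), chr19:10838709-10838958 (MT2A) and chr19:10856081-10856230 (MT3) on the minus strand of chromosome 19. MT1 and MT2A also hold the ARE letters, left in lower case, and these overlap none of the capitals shown.

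Of the 34 members listed, 32 had a mean score of at least 1 over the 6 libraries and were tested together with all 8495 such genes. GPX4, the peroxidase that reduces lipid hydroperoxides, was listed at 0.00066 in 5 libraries and at -0.00132 in Glu + siR-GAL3 replicate 2, values too low and too alike to be read as its level. MT1 also lay below a mean of 1. The members were split evenly by direction, with 16 higher and 16 lower in Glu + siR-GAL3. The median log2 difference was -0.0043 (quartiles -0.18 and 0.05), beside a median of 0.0 over all genes tested (quartiles -0.10 and 0.10). No member passed an adjusted p of 0.05, as no gene of the 8495 did (0.0% called, smallest adjusted p 0.0695). At an unadjusted p under 0.05, 3 members were higher (PRDX5, GPX3 and SOD2), beside 4.41% of all genes tested, and 5 were lower (SRXN1, AKR1B8, TXNRD1, SLC7A11 and GCLC), beside 4.25%. These counts depended on single libraries, with 1 higher and 2 lower without either replicate 2 or replicate 3 of Glu + siR-Con, 3 lower without replicate 1 or 3 of Glu + siR-GAL3, and 11 lower without its replicate 2. The share of all genes at that unadjusted p was not taken in these fits, so the counts cannot be set against it. Calls over all genes changed too, as 167 had a limma adjusted p under 0.05 without replicate 2 of Glu + siR-GAL3. In 3 members every Glu + siR-GAL3 library lay above every Glu + siR-Con library and in 6 every one lay below, beside 10.3% of all genes in each direction. None met the criteria that the paper states for its downloaded datasets, a log2 difference beyond 1 with an unadjusted p under 0.05, which 0.318% of genes did. For sequencing of this kind the supplement instead states an adjusted p under 0.05 from a model of read counts, which was not run on these scores.

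**Figure D2:**
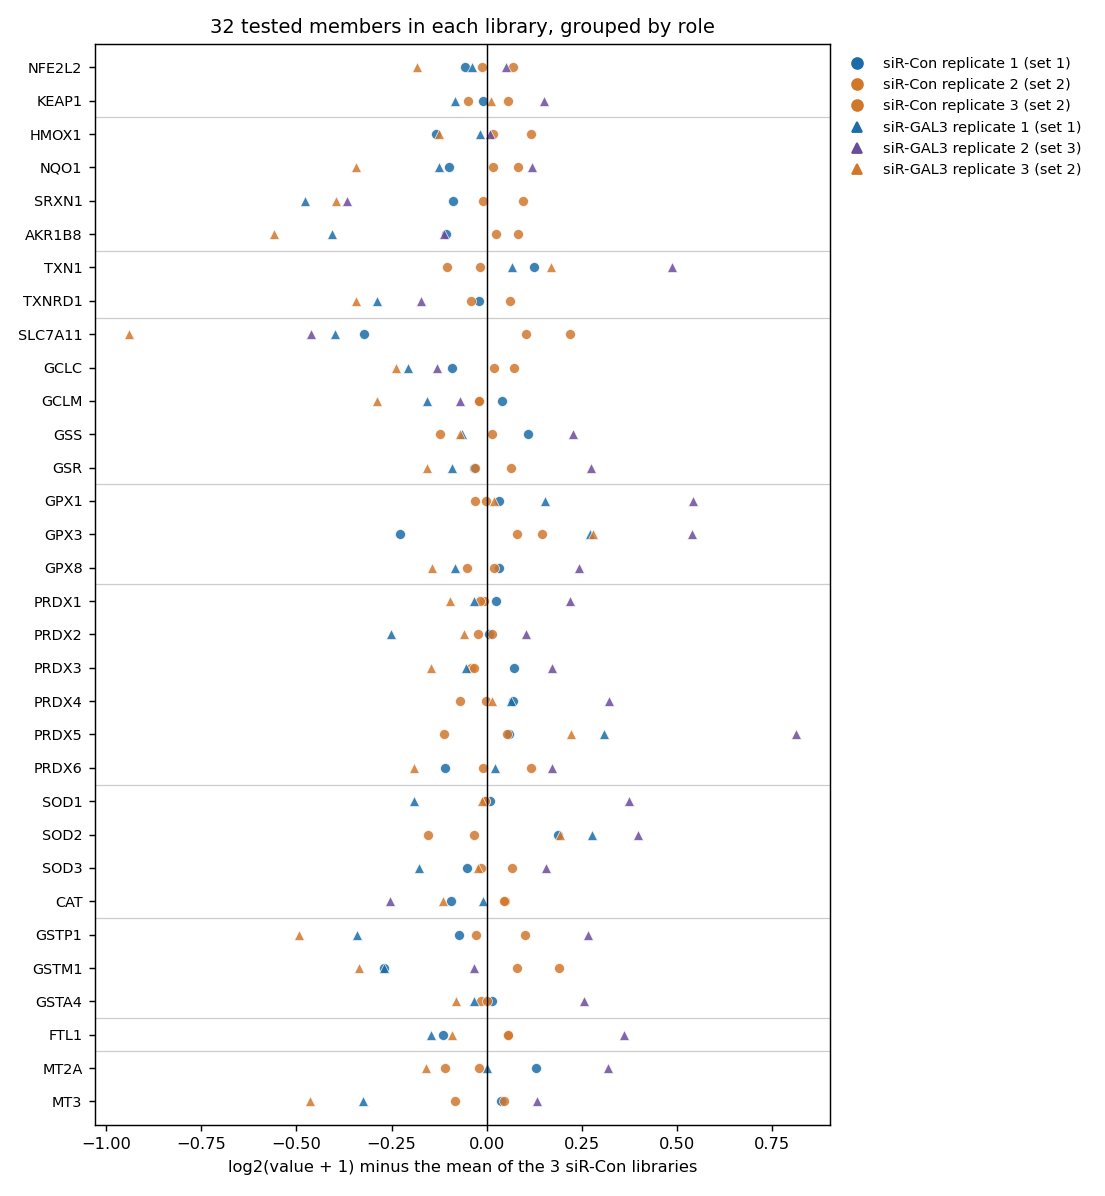
Each tested member in its own row, with 1 point per library at log2(value + 1) minus the mean of the 3 Glu + siR-Con libraries, circles for Glu + siR-Con and triangles for Glu + siR-GAL3. Grey lines part the roles, and colours mark 3 sets of libraries that share exactly equal values (described with the results by set). The purple triangle, Glu + siR-GAL3 replicate 2, is the rightmost point in 22 of the 32 rows, and in SRXN1, AKR1B8, TXNRD1, SLC7A11, GCLC and GCLM all triangles lie left of all circles.

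Markers of other cells moved with the groups. Of 15 tested microglia and macrophage markers 14 were higher in Glu + siR-GAL3, 8 at an unadjusted p under 0.05 (4.41% of all genes). In 8 the groups did not overlap (10.3% of all genes were higher in this way). The 16 listed summed to 149 to 175 in Glu + siR-Con against 191 to 213 in Glu + siR-GAL3. The sums of the 10 astrocyte markers were 937 to 1077 against 811 to 875. Of these 8 were lower, 4 of them at an unadjusted p under 0.05 (4.25% of all genes). GFAP made up most of each sum (571.1 to 757.7 against 514.8 to 533.4). Of the 10 markers 3 were lower without overlap (10.3% of all genes). The 6 listed fibroblast markers summed to 48.4 to 55.1 against 35.3 to 43.7. Of these 5 were lower, 3 at an unadjusted p under 0.05 (4.25% of all genes), and 3 did not overlap (10.3% of all genes). Neuron sums were 39.9 to 44.5 against 40.9 to 45.4. Of 6 tested neuron markers 4 were higher, 1 (STMN2) at an unadjusted p under 0.05 (4.41% of all genes). STMN2 and SYP were higher without overlap (10.3% of all genes). Both reached a mean of 1 only through Glu + siR-GAL3, with Glu + siR-Con means of 0.82 and 0.94. NEFM, not tested, was lower without overlap. Oligodendrocyte sums were 1136 to 1205 against 1151 to 1496. Of 11 tested oligodendrocyte markers 8 were higher, 0 at an unadjusted p under 0.05, and CLDN11 was higher without overlap. Erythroid sums ranged from 6.09 to 41.3 and from 6.83 to 40.4, and the 5 listed endothelial markers summed to 1.11 to 1.31 and 1.17 to 1.24. Astrocytes and microglia express many of the antioxidant genes, and the part of these shifts in the members' values was not tested.

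The regulators themselves differed little. NFE2L2 scored 5.81, 6.43 and 6.02 in Glu + siR-Con and 5.89, 6.34 and 5.24 in Glu + siR-GAL3. The groups overlapped, and the log2 difference was -0.06 ± 0.08 (SE, limma adjusted p = 0.754). KEAP1 had a log2 difference of 0.03 ± 0.08 (limma adjusted p = 0.882). Messenger RNA does not report NRF2 activity, which is set by the breakdown of its protein.

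The 4 inducible detoxifying enzymes were all lower on average, and the members below the control range were SRXN1 and AKR1B8. SRXN1, sulfiredoxin, repairs peroxiredoxins whose active cysteine has been overoxidised. It scored 2.50, 2.70 and 2.98 in Glu + siR-Con against 1.675, 1.885 and 1.83 in Glu + siR-GAL3. Every silenced library lay below every control. The mean went from 2.73 ± 0.240 to 1.80 ± 0.109 (SD, n = 3 each), which is 34.1% lower, with a log2 difference of -0.41 ± 0.07 (SE, limma adjusted p = 0.149). No member had a smaller p, and 3 against 3 libraries cannot give an exact permutation p below 0.1.

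AKR1B8, an aldo-keto reductase that removes reactive aldehydes, scored 6.99, 7.77 and 8.12 in Glu + siR-Con and 5.495, 6.96 and 4.85 in Glu + siR-GAL3. The groups were separated by a narrow gap, between 6.96 and 6.99. The log2 difference was -0.36 ± 0.12 (SE, limma adjusted p = 0.506). Its row is identical in all 6 values to that of AKR1B10, so the value cannot be assigned to either gene with certainty, and why the rows are equal was not tested. HMOX1, haem oxygenase, which frees iron and biliverdin from haem, scored 12.7, 15.3 and 14.2 in Glu + siR-Con and 13.8, 14.1 and 12.8 in Glu + siR-GAL3. Its groups overlapped widely (log2 difference -0.04 ± 0.09, limma adjusted p = 0.814). NQO1, which reduces quinones without a radical intermediate, scored 16.8, 19.2 and 18.3 against 16.5, 19.7 and 14.1. Here replicate 2 of the silenced group was the highest of the 6 and replicate 3 the lowest (log2 difference -0.12 ± 0.12, limma adjusted p = 0.68).

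In the thioredoxin pair the reductase was lower and thioredoxin itself was not. TXNRD1, the selenoenzyme that returns electrons from NADPH to thioredoxin, scored 7.64, 8.15 and 7.51 in Glu + siR-Con and 6.18, 6.775 and 5.905 in Glu + siR-GAL3. No silenced library reached the control range. Its mean was 19.1% lower, 7.77 ± 0.336 against 6.29 ± 0.445 (SD, n = 3 each), and the log2 difference was -0.27 ± 0.07 (SE, limma adjusted p = 0.357). TXN1, thioredoxin, scored 14.9, 13.4 and 12.6 against 14.3, 19.5 and 15.5. Its values overlapped and leaned the other way (log2 difference 0.24 ± 0.12, limma adjusted p = 0.585).

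Of the 5 genes of glutathione supply and recycling, 3 were lower without overlap and 2 overlapped with a slightly higher mean, and none had an adjusted p under 0.05. SLC7A11, the xCT subunit that imports cystine in exchange for glutamate, had the most negative log2 difference of any tested member. It scored 3.20, 4.64 and 5.11 in Glu + siR-Con and 2.98, 2.81 and 1.73 in Glu + siR-GAL3. The control libraries spread widely, and the lowest of them lay just above the highest silenced library. The log2 difference was -0.60 ± 0.19 (SE, limma adjusted p = 0.458).

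GCLC and GCLM, the catalytic and modifier subunits of glutamate-cysteine ligase, which catalyses the rate-limiting step of glutathione synthesis, differed less. GCLC scored 5.11, 5.85 and 5.60 in Glu + siR-Con and 4.64, 4.95 and 4.52 in Glu + siR-GAL3, with a log2 difference of -0.19 ± 0.07 (SE, limma adjusted p = 0.535). GCLM scored 2.11, 1.98 and 1.98 against 1.71, 1.88 and 1.47, a log2 difference of -0.17 ± 0.07 (SE, limma adjusted p = 0.577). Neither subunit overlapped between the groups, and the means were 14.8% and 16.6% lower. The later steps overlapped. GSS, glutathione synthetase, had a log2 difference of 0.03 ± 0.10 (limma adjusted p = 0.897), and GSR, which reduces oxidised glutathione, had 0.01 ± 0.12 (limma adjusted p = 0.979).

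**Figure D3:**
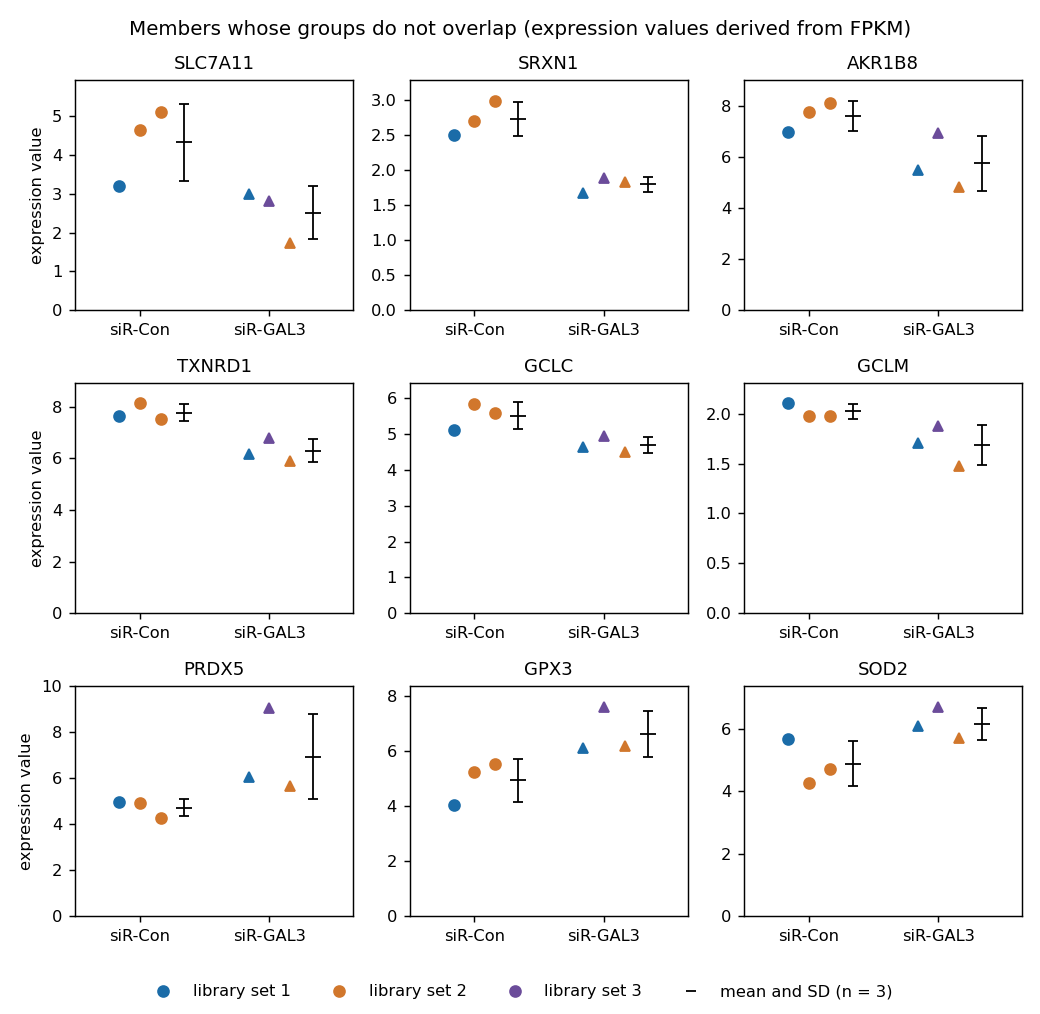
Expression values of the 9 members whose groups did not overlap, 1 point per library on linear axes from 0, with a dash and bar for the mean and SD of each group (n = 3) and colours for library set. In the upper 6 panels the Glu + siR-GAL3 triangles lie below the Glu + siR-Con circles, and in PRDX5, GPX3 and SOD2 they lie above.

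Of the glutathione peroxidases, GPX3 stood apart. GPX3, the secreted peroxidase, scored 4.04, 5.23 and 5.53 in Glu + siR-Con and 6.115, 7.57 and 6.165 in Glu + siR-GAL3. All silenced libraries were above all controls, and the mean was 34.1% higher (log2 difference 0.36 ± 0.12 SE, limma adjusted p = 0.506). GPX1, the cytosolic enzyme, scored 12.6, 12.25 and 11.99 against 13.8, 18.3 and 12.5. Replicate 3 of the silenced group lay within the control range and replicate 2 far above it (log2 difference 0.24 ± 0.13, limma adjusted p = 0.59). GPX8, of the endoplasmic reticulum, had a log2 difference of 0.01 ± 0.11 (limma adjusted p = 0.986).

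Among the 6 peroxiredoxins, PRDX5 was the one without overlap. PRDX5, found in mitochondria, peroxisomes and cytosol, scored 4.95, 4.93 and 4.29 in Glu + siR-Con and 6.07, 9.045 and 5.66 in Glu + siR-GAL3. Its log2 difference was 0.45 ± 0.16 (SE, limma adjusted p = 0.514). Replicate 2 was the highest library, and without it the difference was 0.26. The other 5 peroxiredoxins had log2 differences between -0.07 (PRDX2) and 0.13 (PRDX4), and none had an unadjusted p under 0.05. By level, PRDX2 had a mean of 37.9 in Glu + siR-Con, PRDX1 28.1 and PRDX6 16.8, and PRDX3, the mitochondrial form, had 3.05.

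SOD2, the mitochondrial manganese enzyme, was higher in Glu + siR-GAL3. It scored 5.66, 4.26 and 4.71 in Glu + siR-Con and 6.09, 6.70 and 5.69 in Glu + siR-GAL3. The gap between the groups was narrow, from 5.66 to 5.69 (log2 difference 0.29 ± 0.11 SE, limma adjusted p = 0.529). SOD1, the cytosolic copper-zinc enzyme, scored 12.3, 12.2 and 12.2 against 10.6, 16.1 and 12.1. The controls lay close together, with an SD of 0.0682, against an SD of 2.85 in the silenced libraries (n = 3 each), and the log2 difference was 0.06 ± 0.14 (limma adjusted p = 0.853). SOD3, the extracellular form, had a log2 difference of -0.01 ± 0.10 (limma adjusted p = 0.951). CAT, catalase of the peroxisome, scored 14.4, 16.0 and 15.9 against 15.3, 12.8 and 14.2. It was the single tested member in which replicate 2 of the silenced group was the lowest library (log2 difference -0.13 ± 0.09, limma adjusted p = 0.612).

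The glutathione S-transferases overlapped. GSTP1, the pi class enzyme, scored 25.04, 28.4 and 25.8 in Glu + siR-Con and 20.6, 31.9 and 18.5 in Glu + siR-GAL3. Replicates 1 and 3 were below every control and replicate 2 above every one (log2 difference -0.19 ± 0.19, limma adjusted p = 0.666). GSTM1, of the mu class, scored 29.5, 40.8 and 37.8 against 29.5, 34.9 and 28.1, with a log2 difference of -0.21 ± 0.14 (limma adjusted p = 0.607). GSTA4, which conjugates the lipid peroxidation product hydroxynonenal, had 0.05 ± 0.10 (limma adjusted p = 0.827).

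FTL1, the ferritin light chain, had the highest level of the 34 listed members. It scored 181.0, 204.1 and 204.1 in Glu + siR-Con and 177.2, 252.1 and 184.0 in Glu + siR-GAL3, with means of 196.4 ± 13.4 and 204.4 ± 41.4 (SD, n = 3 each). The groups overlapped (log2 difference 0.04 ± 0.14, limma adjusted p = 0.898). Another rat locus shares its synonym, and copies of ferritin may share reads, so the level is uncertain.

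The metallothioneins showed no separation of the groups. MT2A scored 64.55, 54.6 and 58.1 in Glu + siR-Con and 59.0, 73.8 and 52.7 in Glu + siR-GAL3 (log2 difference 0.05 ± 0.13, limma adjusted p = 0.856). MT3, the form typical of brain, scored 20.5, 18.75 and 20.6 against 15.7, 21.9 and 14.2. As in GSTP1, replicates 1 and 3 lay below every control and replicate 2 above (log2 difference -0.22 ± 0.15, limma adjusted p = 0.612). MT1 scored 0.220, 0.468 and 0.435 against 0.525, 0.574 and 0.435. It was below the level tested, and its row is identical to that of another locus. The score of MT2A lay far above that of MT1 in every library, but with a low score and a shared row the level of MT1 is uncertain.

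**Figure D4:**
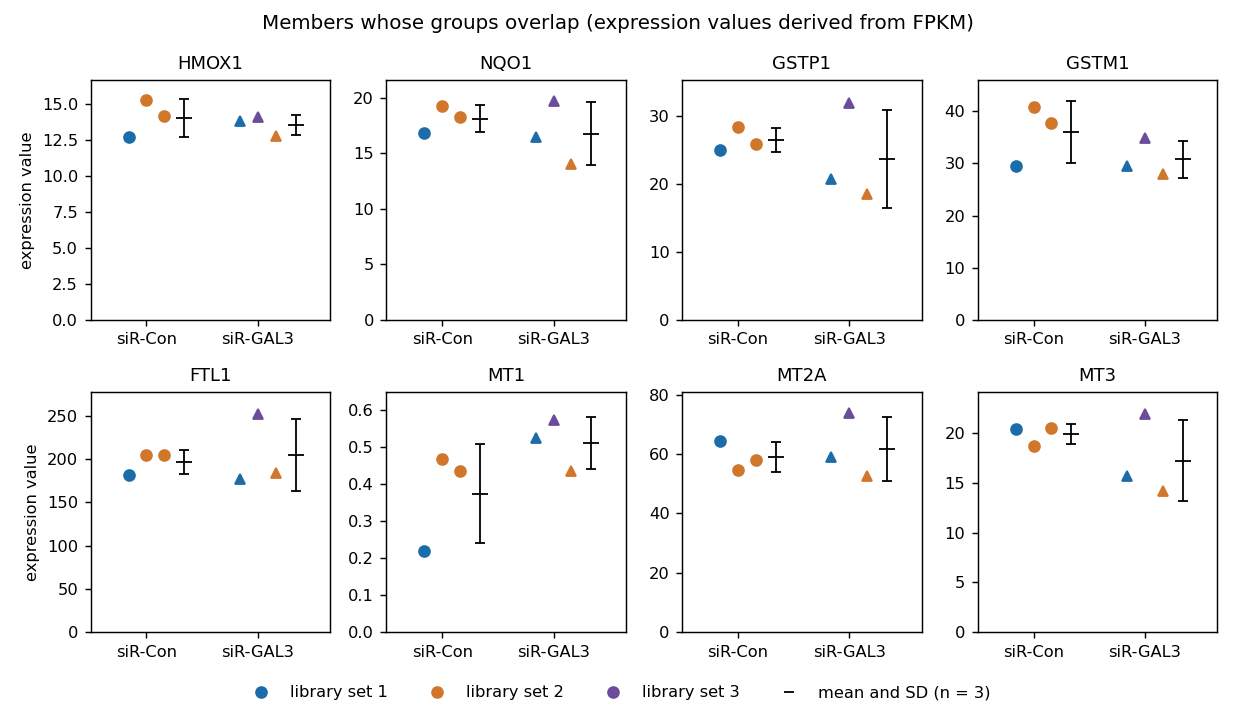
Expression values of 8 members whose groups overlapped, 1 point per library on linear axes from 0, with a dash and bar for the mean and SD of each group (n = 3) and colours for library set. In GSTP1 and MT3 the purple triangle, Glu + siR-GAL3 replicate 2, is the highest point and the other 2 triangles lie below all 3 circles, while in HMOX1 the groups overlap widely.

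Replicate 2 of Glu + siR-GAL3 moved with many of these values. It was the highest of the 6 libraries in 22 of the 32 tested members (41.5% of all genes tested) and the lowest in 1 (35.1% of all genes). Replicate 3 of the same group was the lowest in 17 of the 32 (12.5% of all genes). The silenced group had the larger SD in 26 of 32 members, beside 81.6% of all genes. Exactly equal scores also tied libraries together. Between 1312 and 1463 genes had the same nonzero value in libraries of one set and 238 to 264 in libraries of different sets. Replicate 1 of both groups formed the first set, replicates 2 and 3 of Glu + siR-Con with replicate 3 of Glu + siR-GAL3 the second, and replicate 2 of Glu + siR-GAL3 stood alone. Tested members were among the equal scores, with GSTM1 equal in replicate 1 of both groups (29.46) and FTL1 in replicates 2 and 3 of Glu + siR-Con (204.1). What the sets are is not given in the sources used here.

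Within the sets that held both groups, and so without replicate 2 of Glu + siR-GAL3, the members leaned lower. In 20 of the 32 the silenced library was lower in both sets, beside 28.5% of all genes tested, and in 4 it was higher in both, beside 25.5%. SRXN1 went from 2.50 to 1.675 in the first set and from 2.84 to 1.83 in the second, and TXNRD1 from 7.64 to 6.18 and from 7.83 to 5.905. SLC7A11 was uneven, with 3.20 against 2.98 in the first set and 4.87 against 1.73 in the second. MT3 went from 20.5 to 15.7 and from 19.7 to 14.2, and GSTP1 from 25.04 to 20.6 and from 27.1 to 18.5. Each set holds 1 silenced library, so these pairs have no test of their own.

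With the library set as a block in the limma fit, in which replicate 2 of Glu + siR-GAL3 carries no weight, 26 members were lower and 6 higher. The median log2 difference was -0.10, beside -0.002 over all genes. At an adjusted p under 0.05, 2 members fell, beside 0.353% of genes that fell, and 0 rose, beside 0.895% that rose. SRXN1 fell by 0.42 on the log2 scale (SE 0.06, limma adjusted p = 0.0353) and MT3 fell by 0.41 (SE 0.06, limma adjusted p = 0.043). The fit with replicate 2 left out and no block gave 26 lower and 6 higher, with a median of -0.10. It rests on the same libraries as the block fit and the comparison within sets, so it is not independent of them. There 5 members fell, beside 0.958% of the 8458 genes tested, and 0 rose, beside 1.02%. They were SRXN1 (limma adjusted p = 0.0231), AKR1B8 (0.0231), MT3 (0.0315), TXNRD1 (0.0324) and GSTP1 (0.0353). The 3 members higher without overlap, PRDX5, GPX3 and SOD2, were also higher there, each with an unadjusted p under 0.05 and none with an adjusted p under 0.05. Both fits were chosen with earlier results of these data known, and why replicate 2 differed was not tested.

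**Figure D5:**
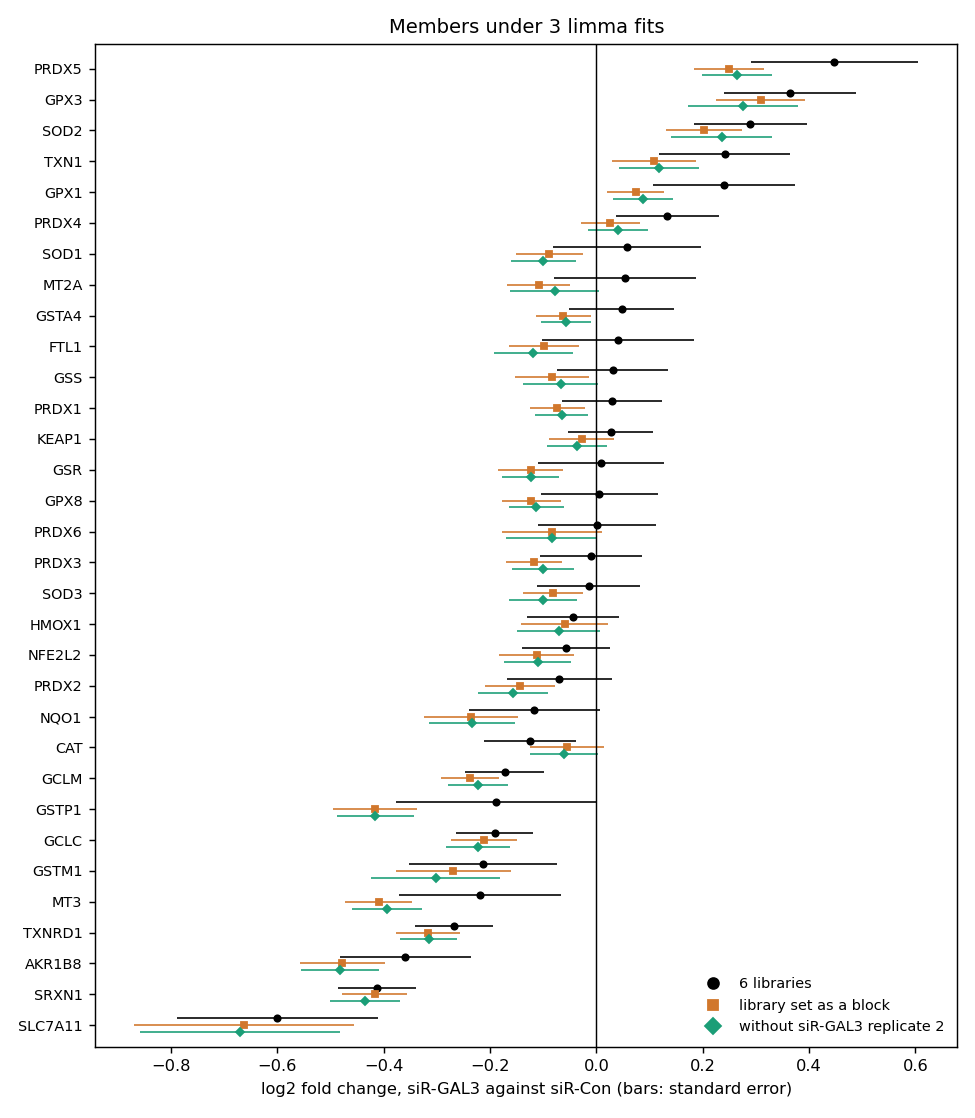
Log2 fold change of each tested member (Glu + siR-GAL3 against Glu + siR-Con) with its standard error, in 3 limma fits: all 6 libraries (circles), library set as a block (squares) and without Glu + siR-GAL3 replicate 2 (diamonds), with members ordered by the first. Squares and diamonds lie left of 0 for 26 of the 32 members, and SLC7A11, SRXN1, AKR1B8 and TXNRD1 lie left of 0 in all 3 fits.

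The wider pathways gave few differences. Of 26 tested partners and further targets of NRF2 (38 named), 13 were higher and 13 lower, with a median log2 difference of 0.02. At an unadjusted p under 0.05, 0 were higher, beside 4.41% of all genes tested, and 1 was lower, beside 4.25%. That gene was ME1, the cytosolic malic enzyme that makes NADPH, at 17.7, 19.7 and 18.7 against 14.8, 16.1 and 16.7 (log2 difference -0.23 ± 0.08 SE, limma adjusted p = 0.499). SQSTM1, the autophagy receptor p62, which also binds KEAP1, was lower in every silenced library (log2 difference -0.17 ± 0.07, limma adjusted p = 0.577). TKT, transketolase of the pentose phosphate pathway, likewise had no overlap (-0.17 ± 0.07, limma adjusted p = 0.577). In the block fit the median of these targets was -0.06 and 1 of them fell at an adjusted p under 0.05, beside 0.353% of all genes. This was GSTA1, an alpha class glutathione S-transferase, named after its values were seen, which fell by 0.45 on the log2 scale (SE 0.06, limma adjusted p = 0.0228). Its difference over all 6 libraries was -0.30 (limma adjusted p = 0.577), and it fell by 0.46 without replicate 2 of Glu + siR-GAL3 (limma adjusted p = 0.0133).

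Of 21 tested further glutathione and thioredoxin enzymes (32 named), 13 were higher and 8 lower, with a median log2 difference of 0.08. At an unadjusted p under 0.05, 2 were higher and 1 lower, beside 4.41% and 4.25% of all genes tested. CHAC1, which degrades glutathione, scored 1.007, 0.649 and 0.717 in Glu + siR-Con and 1.13, 1.20 and 1.31 in Glu + siR-GAL3. Its groups did not overlap (log2 difference 0.31 ± 0.09, limma adjusted p = 0.363). GLRX, glutaredoxin, was also higher without overlap (0.34 ± 0.11, limma adjusted p = 0.497), while MSRA, which reduces oxidised methionine, was lower with overlap (-0.30 ± 0.12, limma adjusted p = 0.541).

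For iron and haem, 14 of 22 named genes were tested, 7 higher and 7 lower, with a median log2 difference of -0.01. At an unadjusted p under 0.05, 2 were higher and 1 lower, beside 4.41% and 4.25% of all genes tested. CP, ceruloplasmin, the copper ferroxidase that helps export iron from astrocytes, scored 17.8, 17.4 and 15.6 in Glu + siR-Con and 26.5, 19.4 and 24.3 in Glu + siR-GAL3. All silenced libraries were higher (log2 difference 0.44 ± 0.12 SE, limma adjusted p = 0.357), and CP rose in the block fit (limma adjusted p = 0.0196). TF, transferrin, was higher (0.33 ± 0.12, limma adjusted p = 0.535) and ACO1, which as an apoprotein binds iron-responsive elements, lower (-0.20 ± 0.08, limma adjusted p = 0.535). FTL1, the ferritin light chain, overlapped as described.

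For zinc and copper, 15 of 22 named genes were tested, 6 higher and 9 lower, with a median log2 difference of -0.04. At an unadjusted p under 0.05, 2 were lower, beside 4.25% of all genes tested, and 0 were higher, beside 4.41%. SLC30A4, a zinc transporter into vesicles, scored 1.433, 1.426 and 1.428 in Glu + siR-Con and 0.796, 1.03 and 0.757 in Glu + siR-GAL3. The controls were nearly equal and every silenced library was lower (log2 difference -0.39 ± 0.07 SE, limma adjusted p = 0.149). It fell in the block fit (limma adjusted p = 0.0196). SLC39A10, a zinc importer, was lower (-0.36 ± 0.13, limma adjusted p = 0.534), and the copper chaperone ATOX1 had 0.35 ± 0.17 (limma adjusted p = 0.585). Of 7 tested genes of lipid peroxidation and ferroptosis (14 named), 6 were higher and 1 lower, with a median of 0.05. At an unadjusted p under 0.05, 1 was higher, beside 4.41% of all genes tested. ACSL4, which activates polyunsaturated fatty acids, was higher without overlap at a low level (0.20 ± 0.07, limma adjusted p = 0.508). GCH1 had -0.09 ± 0.08 (limma adjusted p = 0.656) and LPCAT3 0.07 ± 0.07 (limma adjusted p = 0.687).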

How the data were processed

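Total RNA of 6 cultures, 3 of Glu + siR-Con and 3 of Glu + siR-GAL3, was sequenced on an Illumina platform. Per the paper, the authors used STAR for alignment and HTSeq for counting, estimated FPKM, and removed batch effects and corrected differences within groups without naming the tools. The deposited table holds 1 expression score per gene and library on a linear scale. Column totals ran from 64312.6 to 64713.6 and 3.863% of values were below 0, so the scores are adjusted values, sequencing depth is unknown and no counting error can be given. The unit planned was FPKM. The paper names polyadenylated RNA and the labels depletion of ribosomal RNA, and the genome build of the values is not given in the sources used here.

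After negative values had been replaced by 0, limma 3.58.1 (R 4.3.3, intensity trend) was run on log2(value + 1) for all 6 libraries and the 8495 genes whose mean reached 1. P-values are two-sided and adjusted by Benjamini-Hochberg over all genes tested. A fold change on this scale understates that of low genes. The fit was tested on simulated data. The members and lists were chosen with earlier results of these data known. Values per library are given for HMOX1, NQO1, GCLM, SLC7A11, GPX4, SOD1, SOD2, CAT, NFE2L2, FTL1, MT1, MT2A, MT3 and every member with an unadjusted p under 0.05 or no overlap, and for up to 3 genes of smallest p in each further pathway. TXN1, GPX1, GSTP1 and GSTM1 were added after their values were seen. All 34 listed members matched a RefSeq symbol of GRCr8. The alternatives were no filter, a minimum mean of 10, a pseudocount of 0.1, quantile and median-ratio scaling, no trend, values not log-transformed, no gene with a value below 0, blocks for replicate number and library set, and each library left out.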

Additional observations from a re-analysis of the deposited data

How the results depend on the processing

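The median log2 difference over the members kept within -0.1003 to 0.0459 when single libraries were left out. Their counts at an unadjusted p under 0.05 then ranged from 1 to 4 higher and from 2 (without Glu + siR-Con replicate 2 or 3) to 11 lower (without Glu + siR-GAL3 replicate 2). With genes of a mean of at least 10 only, 14 members were tested, with 0 higher and 0 lower (the 8 members of the 6-library fit all have lower means), and blocking on library set gave 10 lower. The share of all genes at that unadjusted p was taken for the 6-library fit only. Directions turned for single genes. Under the library set block SOD1 had a log2 difference of -0.0887, FTL1 -0.0982 and MT2A -0.1089. With each library left out in turn, SOD1 ranged from -0.1002 to 0.1809, FTL1 from -0.1185 to 0.1345 and MT2A from -0.0789 to 0.1602, each lowest without Glu + siR-GAL3 replicate 2. HMOX1 ranged from -0.1103 to 0.014 (above 0 without Glu + siR-Con replicate 2) and NFE2L2 from -0.1107 to 0.0058 (above 0 without Glu + siR-GAL3 replicate 3). SRXN1 and TXNRD1 had an unadjusted p under 0.05 in all 6 fits that leave out a library, GPX3 in 5 (lost without Glu + siR-Con replicate 1), SLC7A11 and PRDX5 in 4, SOD2 in 3, AKR1B8 and GCLC in 2 and GCLM in 1. Where a group then held 2 libraries, the spread was still estimated over both groups. Deviations of same-numbered libraries from their group means correlated at -0.17, -0.07 and 0.04. Replicate 1 of both groups nevertheless fell in the same library set, so whether replicate numbers pair the libraries is unknown. With a replicate block 3 members were higher and 4 lower, the median was -0.0043, and 6 of all genes had an adjusted p under 0.05. The limits are the number of libraries, the unknown depth and the authors' correction within groups.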
